A study of Homo sapiens with 4 samples.

Results

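The genes described here encode the proteasome, the protease complex that degrades ubiquitin-tagged proteins. They were chosen by symbol, as genes that start with PSMA, PSMB, PSMC, PSMD, PSME or PSMG followed by a number, without PSMB8, PSMB9 and antisense entries, and with at least 4 UMIs (distinct RNA molecules counted) in 1 library. Of 33538 genes in the files, 53 had such a symbol, 5 of them antisense entries, and 46 were left after PSMB8 and PSMB9 were set aside. PSMA8, with 0 UMIs in each library, and PSMB11, with at most 1 UMI, did not reach the minimum, which left 44 genes. One of them, PSMC3IP, is a factor of meiotic recombination and not a proteasome gene, so 43 genes belong to the proteasome. PSMC3IP enters no sum of subunits and is left out of the plots, but the counts of genes tested and called below are over all 44 genes, with PSMC3IP among them where it passed.

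The cells were HCEC 1CT, human colon cells made immortal by TERT and CDK4, which had been transduced with shRNA to APC (shAPC) or with scrambled shRNA (shScr). Single-cell libraries were made 3 and 7 days later, 1 for each shRNA and day, so the groups could not be tested against each other and the differences below have no replicate check. After filtering, the libraries held 1116 cells in shScr day 3, 788 in shAPC day 3, 2600 in shScr day 7 and 1478 in shAPC day 7, with between 28451455 and 39797418 UMIs, and the median cell of shScr day 7 held 1330 UMIs against 21029.5 to 49685.5 in the others. Between 2 and 25 cell barcodes were shared by any pair of libraries. Barcodes of that kind held 6.03% of the kept UMIs of shAPC day 3 and at most 1.17% of the others. APC itself stood at 16.1 counts per 1000000 UMIs (CPM) in shScr and 5.52 CPM in shAPC at day 3, and at 19.1 and 6.61 CPM at day 7. The epithelial label was not borne out by its defining markers, since EPCAM and CDH1 stayed under 0.1 CPM in every library and KRT8 between 9.57 and 19.4 CPM, whereas the mesenchymal gene VIM lay between 4010.2 and 5303 CPM. Of the 6 genes on the mesenchymal list, 5 reached 20 CPM in every comparison of libraries, while CDH2 stayed under it throughout. Of 4 leukocyte and 3 endothelial markers, CD3E and CDH5 were at 0 UMIs throughout, while CD68, which is also a general lysosomal gene, lay between 17.4 and 29.6 CPM, with shAPC over shScr differences of 0.30 at day 3 and 0.47 at day 7 on the relative log2 scale defined below. Its part in the ratios was not tested.

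The 26S proteasome consists of a barrel, the 20S core, and a cap, the 19S particle. The outer rings of the barrel are built of alpha subunits (PSMA) and the inner rings of beta subunits, among which PSMB5, PSMB6 and PSMB7 carry the proteolytic sites. The 19S base holds a ring of ATPases (PSMC) that unfolds substrates, and the lid holds PSMD14, which removes the ubiquitin chain. In cells exposed to interferon, PSMB8, PSMB9 and PSMB10 can take the places of PSMB5, PSMB6 and PSMB7, which gives the immunoproteasome, and PSME1 and PSME2 form the PA28 activator that can replace the 19S cap. The name constitutive therefore did not suit 3 of the 44 genes, PSMB10, PSME1 and PSME2, which are known targets of interferon and are described as a group of their own.

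The promoters of these 3 genes are shown because their levels are compared below with those of interferon genes, and those of PSMD14 and PSMC1 because these genes had the lowest day 7 over day 3 ratios of the core and cap in both shRNA groups. Each line gives 100 bases before the RefSeq transcription start and 20 bases from the start on (GRCh38.p14), and capitals mark the core motif of the interferon-stimulated response element (GAAA, 2 bases of any kind and GAAA again) where it was found on either strand.
PSME2, chr14:24146591-24146710, minus strand: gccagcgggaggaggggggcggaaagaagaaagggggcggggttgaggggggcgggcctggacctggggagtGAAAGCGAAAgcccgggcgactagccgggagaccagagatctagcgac
PSME1, chr14:24136094-24136213, plus strand: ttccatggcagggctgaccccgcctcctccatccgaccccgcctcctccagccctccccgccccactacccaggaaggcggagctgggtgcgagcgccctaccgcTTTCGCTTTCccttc
PSMB10, chr16:67936831-67936950, minus strand: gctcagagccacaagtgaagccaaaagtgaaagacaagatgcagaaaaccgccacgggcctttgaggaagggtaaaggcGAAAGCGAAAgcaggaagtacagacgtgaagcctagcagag
PSMD14, chr2:161308325-161308444, plus strand: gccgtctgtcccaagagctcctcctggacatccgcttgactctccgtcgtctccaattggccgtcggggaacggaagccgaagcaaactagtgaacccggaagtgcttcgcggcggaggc
PSMC1, chr14:90256453-90256572, plus strand: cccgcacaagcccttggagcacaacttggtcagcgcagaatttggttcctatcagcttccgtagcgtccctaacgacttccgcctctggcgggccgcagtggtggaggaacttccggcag
In all of PSME2, PSME1 and PSMB10 the motif had the same letters, read on the gene's own strand in PSME2 (positions -28 to -19 from the start) and PSMB10 (-21 to -12) and on the other strand in PSME1 (5 to 14). Promoters of 300 bases (250 before the start and 50 from it on) were found for 38 of the 44 genes, and 6 of them (15.8%) held this motif against 3.65% of 27305 promoters. The other 3 were PSMA4, PSMB4 and PSMG4. TGANNNNGC, the antioxidant response element bound by NFE2L1 and NFE2L2, was in 22 of the 38 (57.9%) against 42.1% of all promoters. These letters occurred in the 300 bases of PSMD14 at -146 to -138, and of PSME2 and PSME1, and neither motif was in the 300 bases of PSMC1. A match of letters is a description and not a bound site.

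All 44 genes had levels above 0 in each of the 4 libraries, and the plot of levels gives the 43 that belong to the proteasome. The highest was PSMA7, an alpha subunit, with 430.6 CPM in shScr day 3, 459.98 in shAPC day 3, 531 in shScr day 7 and 368 in shAPC day 7. The lowest was PSMA6, between 5.33 and 8.87 CPM, whose exons overlap those of another annotated gene on the same strand and which has 4 named pseudogenes, so its count is uncertain. Since the assay counts tags at the 3′ ends of transcripts, levels are compared between libraries and not between genes. Together the 14 genes of the 20S rings and the 17 of the 19S particle that the rule chose took 2936 CPM in shScr day 3, 3631 in shAPC day 3, 3049 in shScr day 7 and 2318 in shAPC day 7. The sum was thus highest in shAPC at day 3 and lowest in shAPC at day 7.

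**Figure D1:**
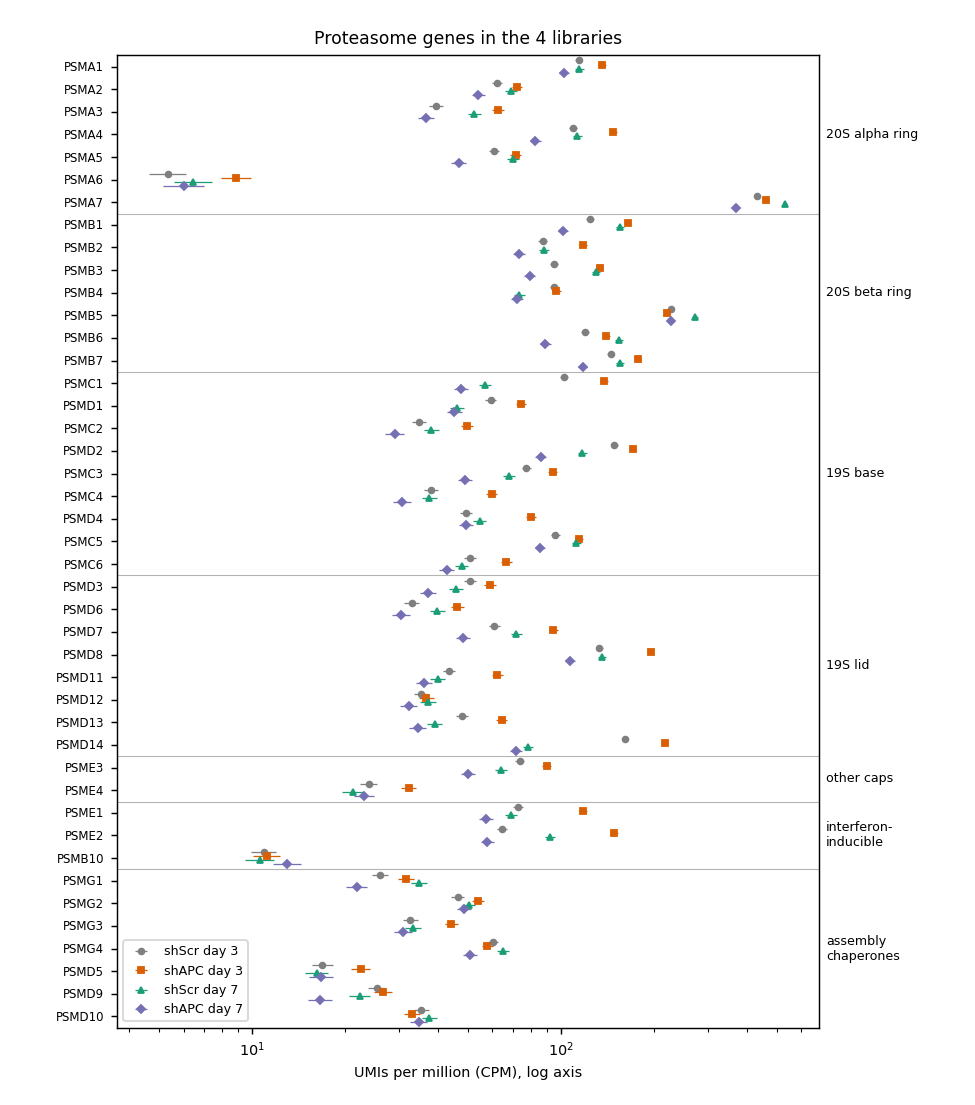
Level of 43 proteasome genes in each library, in CPM on a log axis, ordered by role. Points are the 4 libraries and bars are exact Poisson 95% intervals, which cover counting error only. For 35 of the 43 genes shAPC day 3 is the highest point, and for 35 shAPC day 7 is the lowest.

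Part of that order was shared with the rest of the transcriptome. The log2 ratio of the sum for shAPC over shScr was 0.31 at day 3 and -0.40 at day 7. For day 7 over day 3 it was 0.05 in shScr and -0.65 in shAPC. The median log2 ratio of all genes with at least 20 CPM in 1 of the 2 libraries was 0.28 for shAPC over shScr at day 3, -0.10 at day 7, 0.05 for day 7 over day 3 in shScr and -0.34 in shAPC. Ratios are therefore given relative to that median, as log2 differences from it, with exact conditional binomial 95% intervals in parentheses. A gene is called higher or lower where it lay at least 0.5 from the median of all genes, a fixed size and not a test. Every library enters 1 comparison of shRNAs and 1 of days, so the 4 sets of ratios are not independent. A sum over cells does not tell less RNA per cell from fewer cells of a kind.

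At day 3 the core and cap genes were close to the median of all genes, and PSME2 stood above it. Of the 42 genes that passed 20 CPM, PSMC3IP included, 26 lay above and 16 below the all-gene median, and their own median was 0.10. Only PSME2 was called higher and none lower, at 0.92, while 8.95% of 5175 genes were called higher, 8.14% lower and 3.19% lay at least 1 from the median in either direction. The share of the 42 genes called (2.38% higher, 0 lower) was thus under that of all genes. When each cell counted equally, by averaging CPM across cells, the median of these genes became -0.030, and when ratios were scaled by total UMIs and not centred, 9 genes lay at least 0.5 higher. In that scaling the median of all genes was itself 0.28, and the share of all genes that high is not given here.

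PSME2 was counted at 64.4 CPM in shScr day 3, 148 in shAPC day 3, 92.3 in shScr day 7 and 57.7 in shAPC day 7. On the relative log2 scale shAPC stood 0.92 (0.85 to 0.99) above shScr at day 3, whereas the day 7 value was -0.58 (-0.67 to -0.49). PSME1, its partner in PA28, was at 72.6, 118, 69.0 and 57.2 CPM in the same order, with ratios of 0.41 (0.35 to 0.48) and -0.17 (-0.27 to -0.08). The pair lie on chromosome 14 at 24143362 to 24147570 on the minus strand (PSME2) and at 24136163 to 24138967 on the plus strand (PSME1) of hg38. Exons of PSME2 overlap MIR7703 on its own strand and RNF31 on the other, those of PSME1 overlap EMC9 on the other strand, and PSME2 has 6 named pseudogenes. PSMB10, on chromosome 16 at 67934506 to 67936864, was low in every library, at 10.9, 11.2, 10.6 and 13.0 CPM. It did not reach 20 CPM, and its ratios were -0.25 (-0.45 to -0.05) and 0.39 (0.17 to 0.61), on the opposite sides of the median from those of PSME1 and PSME2. Exons of PSMB10 overlap those of another annotated gene on the same strand, so its count is uncertain, as is that of PSME2. The 2 immunoproteasome genes left out by the rule were closer to PSME2. PSMB9 was at 15.4, 31.6, 21.6 and 10.1 CPM, with ratios of 0.76 (0.61 to 0.90) and -1.0 (-1.21 to -0.80). It stayed under 20 CPM in shScr day 3 and shAPC day 7. Exons of PSMB9 overlap PSMB8-AS1 on its own strand and PSMB8 on the other, so its count is uncertain as well. PSMB8 was at 25.6, 40.2, 26.8 and 20.6 CPM, with 0.37 (0.25 to 0.48) and -0.29 (-0.44 to -0.13).

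Ratios between proteasome genes within a library do not depend on how libraries are scaled. PSMB9 had 0.129 UMIs per UMI of PSMB6, whose place it can take, in shScr day 3 (0.118 to 0.140), 0.225 in shAPC day 3 (0.211 to 0.241), 0.141 in shScr day 7 (0.129 to 0.152) and 0.113 in shAPC day 7 (0.100 to 0.128). The ratio of PSMB8 to PSMB5 was likewise highest in shAPC day 3, at 0.183 (0.172 to 0.193), with 0.113, 0.0988 and 0.0906 in the other 3 libraries. PSMB10 over PSMB7 had another order, at 0.0752 in shScr day 3, 0.0629 in shAPC day 3, 0.0683 in shScr day 7 and 0.111 (0.0991 to 0.123) in shAPC day 7. Between the caps, PSME2 over PSME3, a nuclear activator of the same family, was 0.877 (0.831 to 0.925) in shScr day 3, 1.65 (1.58 to 1.73) in shAPC day 3, 1.45 (1.37 to 1.53) in shScr day 7 and 1.15 (1.07 to 1.24) in shAPC day 7, so it was lowest in shScr day 3.

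**Figure D2:**
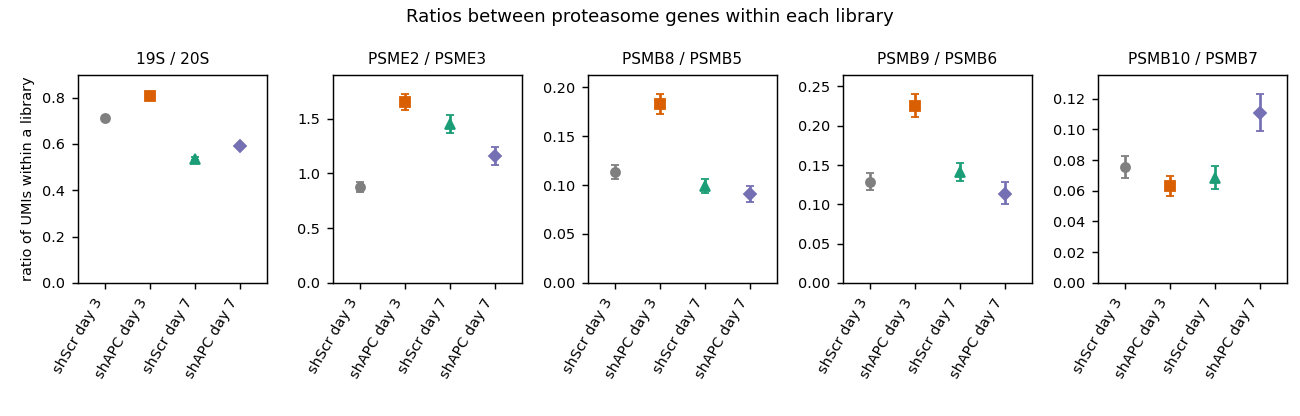
Ratios of UMIs between proteasome genes within each library, with exact 95% intervals of counting error. The ratios of PSMB8 to PSMB5 and PSMB9 to PSMB6 are highest in shAPC day 3, PSMB10 to PSMB7 is highest in shAPC day 7, and 19S to 20S subunits is lower in both day 7 libraries.

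The catalytic subunits of the core had lower shAPC over shScr ratios than PSME2 at day 3. PSMB5, the chymotrypsin-like subunit, was at 227 CPM in shScr day 3, 220.1 in shAPC day 3, 271 in shScr day 7 and 227 in shAPC day 7, and its shAPC over shScr ratio was below the all-gene median at both days, at -0.33 (-0.37 to -0.28) and -0.16 (-0.21 to -0.11). PSMB6, the caspase-like subunit, was at 119.6, 140.3, 154 and 89.0 CPM, with -0.05 (-0.11 to 0.01) at day 3 and -0.69 (-0.76 to -0.62) at day 7. PSMB7, the trypsin-like subunit, was at 145, 178, 155 and 118 CPM, with 0.01 (-0.04 to 0.06) and -0.30 (-0.37 to -0.24). At day 7 PSMB6 was thus the lowest of the 40 proteasome genes tested. At day 3 the summed 20S subunits were at -0.05 (-0.07 to -0.04) and the 19S subunits at 0.13 (0.11 to 0.15). The members highest at day 3 were PSMA3 (0.39) in the alpha ring, PSMB3 (0.21) in the beta ring, PSMD4 (0.42, 0.34 to 0.51), a ubiquitin receptor of the base, and PSMD7 (0.35), the partner of PSMD14 in the lid. Those lowest were PSMA7 (-0.19), PSMB5, PSMD2 (-0.09) and PSMD12 (-0.22). Among the assembly chaperones PSMG3 was highest (0.16) and PSMD10 lowest (-0.38), and the caps PSME4 and PSME3 were at 0.14 and 0.01.

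**Figure D3:**
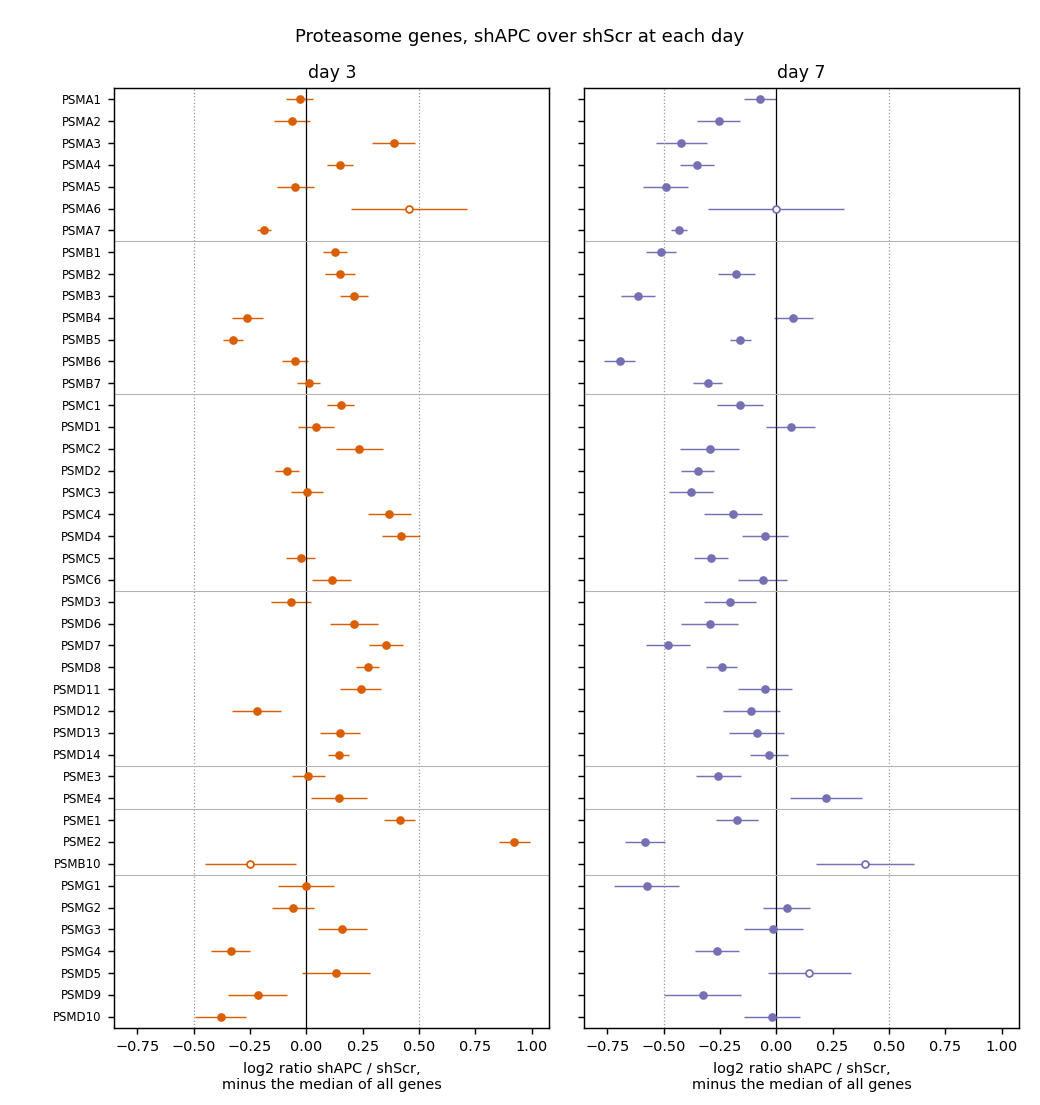
Relative log2 ratio of shAPC over shScr at day 3 (left) and day 7 (right) for 43 proteasome genes, with 95% intervals of counting error. The solid line is the median of all genes, dotted lines mark 0.5 on either side, and open points did not reach 20 CPM. PSME2 stands out on the right at day 3, and most genes lie left of the line at day 7.

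At day 7 most proteasome genes were lower in shAPC relative to all genes, by small amounts. Of 40 that passed 20 CPM, 36 lay below the all-gene median and 4 above it, and their median was -0.25. The number called lower was 5, the beta subunits PSMB1, PSMB3 and PSMB6, the activator PSME2 and the assembly chaperone PSMG1, and none higher. That is 12.5% of those tested called lower against 7.72% of 4573 genes, with 6.89% of all genes called higher and 2.49% at least 1 away in either direction. PSMB1 was at 124, 165, 155 and 102 CPM in the order given above, with ratios of 0.13 (0.07 to 0.18) and -0.51 (-0.58 to -0.44) at the 2 days. For PSMB3, at 94.8, 133, 129.9 and 79.3 CPM, the ratios were 0.21 (0.15 to 0.27) and -0.61 (-0.69 to -0.54). PSMG1, which with PSMG2 assembles the alpha ring, was at 26.0, 31.5, 34.8 and 21.8 CPM, with -0.0011 (-0.12 to 0.12) and -0.57 (-0.72 to -0.43). Its partner PSMG2 was at 0.05 (-0.06 to 0.15) at day 7. The sum of the 20S subunits was at -0.35 (-0.37 to -0.33) and that of the 19S subunits at -0.21 (-0.23 to -0.18). Of the caps, PSME4 was above the median, at 0.22 (0.06 to 0.38), and PSME3 below, at -0.26 (-0.36 to -0.16). The lowest alpha subunit was PSMA5 (-0.49) and the highest PSMA1 (-0.07), the lowest base subunit PSMC3 (-0.38) and the highest PSMD1 (0.06), and the lowest lid subunit PSMD7 (-0.48) and the highest PSMD14 (-0.03). PSMB4 (0.08) was the highest of the beta ring. The number called lower was 1 of 39 in cells called G1 and 12 of 40 with CPM averaged across cells. The count at day 7 was thus not stable across these settings, for which the share of all genes is not given here.

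In the comparison of days the sum of the cap lay below all genes under both shRNAs, and that of the core in shAPC only, by less. Between day 3 and day 7 the summed 20S subunits went from 1715 to 1984 CPM in shScr and from 2009 to 1456 CPM in shAPC, or 0.16 (0.14 to 0.17) and -0.12 (-0.14 to -0.10) relative to all genes. The 19S subunits went from 1221 to 1065 CPM in shScr and from 1622 to 862 CPM in shAPC, or -0.25 (-0.27 to -0.23) and -0.57 (-0.59 to -0.55). In the ratio of the 2, which no scaling of libraries can move, 19S over 20S was 0.712 (0.704 to 0.721) in shScr day 3, 0.808 (0.799 to 0.817) in shAPC day 3, 0.537 (0.530 to 0.544) in shScr day 7 and 0.592 (0.582 to 0.601) in shAPC day 7. It was lower at day 7 by -0.41 (log2) in shScr and -0.45 in shAPC, and higher in shAPC than in shScr by 0.18 at day 3 and 0.14 at day 7. Without PSMC1 and PSMD14 the day 7 over day 3 difference was -0.25 and -0.31, so these genes carried part of it. The 19S sum leaves out SEM1, a small subunit of the cap whose symbol the rule did not take. SEM1 was at 305 CPM in shScr day 3, 253 in shAPC day 3, 295 in shScr day 7 and 230 in shAPC day 7. At day 3 it was lower in shAPC than in shScr, opposite to the 19S to 20S ratio. That ratio with SEM1 included is not given here. Gene by gene the groups overlapped. In shScr the median of the relative day 7 over day 3 ratios was 0.13 over the tested alpha subunits, 0.20 over the beta subunits, -0.14 over the base and -0.10 over the lid, and in shAPC it was -0.17, -0.31, -0.43 and -0.48. The SD between members of a group lay between 0.15 and 0.42. The beta to alpha ratio of the core stayed between 1.07 and 1.10 in all 4 libraries.

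PSMD14 and PSMC1 were the genes of the core and cap that differed most between the days. PSMD14 (chromosome 2, 161308425 to 161411717, plus strand) was at 161 CPM in shScr day 3, 217 in shAPC day 3, 78.2 in shScr day 7 and 71.5 in shAPC day 7, which gave -1.10 (-1.17 to -1.03) in shScr and -1.25 (-1.33 to -1.18) in shAPC. PSMC1, an ATPase of the base (chromosome 14, 90256527 to 90275429, plus strand), was at 102, 138, 56.8 and 47.5 CPM, or -0.90 (-0.98 to -0.82) and -1.19 (-1.28 to -1.11). Both day 7 libraries lay below both day 3 libraries for the 2 genes, and the shAPC over shScr ratios of both genes at either day lay between -0.16 and 0.15. In cells called G1 PSMD14 was at -1.13 and -1.23, and in the bottom, middle and top tertile of cells by interferon genes, defined below, at -1.31, -1.10 and -0.85 in shScr and at -1.43, -1.12 and -1.25 in shAPC. In cells with a UMI of the stress gene ATF3, a split chosen after the data were seen, it was at -0.15 (-0.40 to 0.11) in shScr, from 248 and 274 UMIs, and at -1.34 (-1.62 to -1.08) in shAPC. PSMC1 has 13 named pseudogenes and PSMD14 has 1. With CPM averaged across cells the PSMC1 ratio in shScr was -0.40.

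In shScr, PSMC1 and PSMD14 were the 2 genes called lower of 40 tested (5.00%), 1 of them by at least 1, and none was called higher, beside 6.78%, 1.01% and 4.43% of 4556 genes. The median of the 40 genes was 0.01, with 20 on each side. In shAPC 12 of 42 were called lower (28.6%), 3 of them (PSMC1, PSMD14 and PSME2) by at least 1, and none higher, beside 10.5%, 2.65% and 10.2% of 5176 genes, and the median was -0.34. The 12 were the base genes PSMC1, PSMD2, PSMC3 and PSMC4, the lid genes PSMD7, PSMD8, PSMD13 and PSMD14, the activators PSME1, PSME2 and PSME3, and PSMC3IP. Of the 42, 3 passed 20 CPM in the day 3 library alone, PSMC3IP among them. Over the 39 that passed in both libraries 11 were called lower. Without PSMC3IP the genes called lower were 11 of 41. No 20S subunit was among them, but the limit ran close to members on both sides, with PSME3 at -0.50 (-0.59 to -0.41) called and the alpha subunit PSMA4 at -0.49 (-0.56 to -0.42) not. PSME2 was at 0.47 (0.39 to 0.54) in shScr and -1.02 (-1.10 to -0.94) in shAPC, and PSME1 at -0.13 (-0.21 to -0.05) and -0.70 (-0.78 to -0.61). PSMB5 was above the median in both, at 0.20 (0.16 to 0.25) and 0.39 (0.34 to 0.44). Of the factors that help to assemble the base, PSMD10 was at 0.03 (-0.08 to 0.15) and 0.41 (0.29 to 0.54), PSMD9 at -0.24 and -0.33 and PSMD5 at -0.12 and -0.08. PSMC3IP was at 18.3, 23.6, 12.8 and 10.6 CPM, or -0.57 (-0.75 to -0.39) and -0.80 (-1.0 to -0.61).

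**Figure D4:**
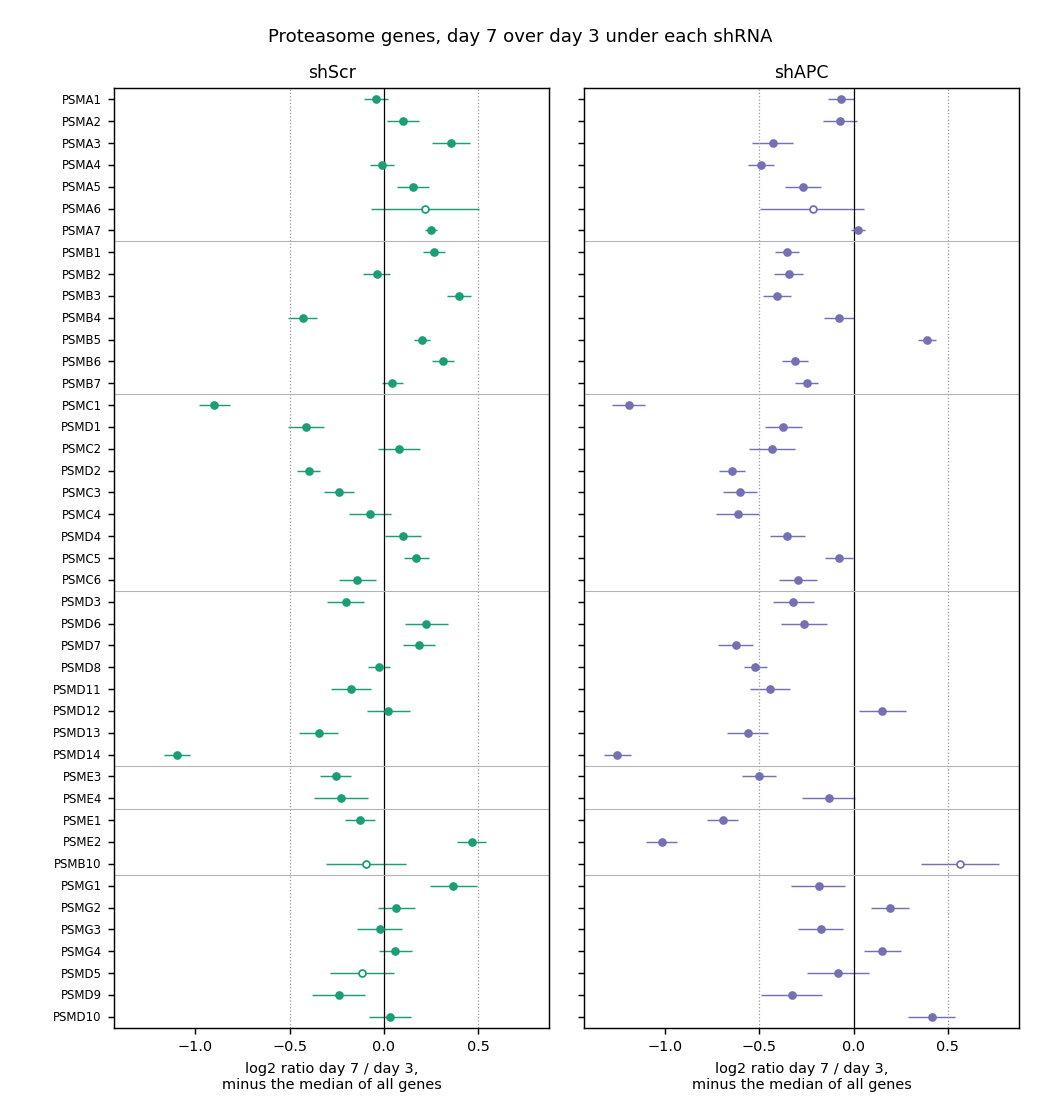
Relative log2 ratio of day 7 over day 3 in shScr (left) and shAPC (right) for 43 proteasome genes, with 95% intervals of counting error, lines and open points as in the plot of shAPC over shScr. PSMC1 and PSMD14 are the points farthest left in the left panel, and PSME2 joins them in the right panel.

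The lists set beside the proteasome gave these values. In the interferon list 10 of the 20 genes that passed 20 CPM at day 3 did so in shAPC alone, so counts are given over those that passed in both libraries. Of these, 8 of 10 were called higher in shAPC at day 3, with a median of 1.86, and 3 of 6 lower at day 7, with a median of -0.63. ISG15, a ubiquitin-like protein, was at 268, 1199, 313 and 143 CPM. Of the antigen presentation genes that passed in both libraries, 5 of 6 were called higher at day 3 and 1 lower, TAPBP at -0.94, and 2 of 5 were called lower at day 7. HLA-B was at 1.43 and -0.30, B2M at 0.86 and -0.87 and TAP1, a peptide transporter, at 0.58 and -0.31. Among the partners of the proteasome none of 10 was called higher, and 1 was called lower at either day. These were SEM1, a small subunit of the cap, at -0.55 (-0.59 to -0.51) at day 3, and POMP, which matures the core, at -0.57 (-0.61 to -0.53) at day 7. In the list of the NFE2L1 pathway, which raises proteasome genes when proteolysis is short, NFE2L1 was at -0.30 (-0.36 to -0.23) and 0.09 (0.00 to 0.18), and NFE2L2 was the 1 of 4 genes called higher at day 3, at 0.65 (0.58 to 0.71), with 0.39 (0.31 to 0.48) at day 7. NFE2L1 was lower at day 7 than at day 3, by -0.70 in shScr and -0.30 in shAPC. None of 9 ubiquitin genes was called at either day. Nor was any of the 8 genes of the CCT chaperonin, another large complex of many subunits, whose sum was at -0.04 (-0.06 to -0.02) at day 3, -0.12 (-0.15 to -0.10) at day 7, -0.11 for day 7 over day 3 in shScr and -0.18 in shAPC. The corresponding values of the 20S and 19S subunits together were 0.02, -0.30, 0.00 and -0.30.

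Within libraries, PSME2 took a larger share of UMIs in cells with a larger share of interferon UMIs, and in shAPC day 3 and shScr day 7 many other proteasome genes did so too. Cells of at least 2000 UMIs were ranked in each library by the share of their UMIs that fell on the 22 genes of the interferon list, which holds no proteasome gene, and divided into 3 equal parts, or tertiles, of 299 or 300 cells in shScr day 3, 224 or 225 in shAPC day 3, 399 or 400 in shScr day 7 and 362 or 363 in shAPC day 7. These tertiles are ranges of a score and not cell types, and 66 to 120 cells of a library lay within 10% of a limit between tertiles. The limits themselves differed between libraries, from 0.0317% of UMIs in shAPC day 7 to 0.249% in shAPC day 3 for the lower one. PSME2 had the highest top over bottom ratio of the genes tested among the 44 in every library. In shAPC day 7 PSMB3 was nearly level with it, at 0.83 (0.68 to 0.99) relative to the median of all genes. PSME2 went from 52.0 CPM in the bottom tertile through 60.2 to 82.2 in the top tertile of shScr day 3. In shAPC day 3 PSME2 went from 64.1 through 104 to 281, and in shScr day 7 from 55.2 through 87.1 to 138. In shAPC day 7 PSME2 went from 40.6 through 53.6 to 78.6. Relative to the median of all genes, these were differences of 0.67 (0.53 to 0.81), 1.85 (1.73 to 1.96), 1.26 (1.12 to 1.40) and 0.84 (0.66 to 1.02). PSMB9, set aside by the rule, was at 1.43 (1.11 to 1.75), 2.05 (1.79 to 2.32), 1.28 (1.0 to 1.57) and 0.20 (-0.20 to 0.61).

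Constitutive genes of the core followed PSME2 in this ranking. PSMB3 went from 60.4 through 118 to 224 CPM and PSMB6 from 67.4 through 116 to 241 CPM across the tertiles of shAPC day 3, or 1.60 (1.49 to 1.72) and 1.55 (1.44 to 1.67) relative to all genes. In shScr day 7 the same genes were at 1.03 and 1.02, in shAPC day 7 at 0.83 and 0.60, and in shScr day 3 at 0.42 and 0.51. Others in shAPC day 3 were PSMB1 (1.24), PSMD8 (1.17), PSMC4 (1.11), PSMD6 (1.11), PSME1 (1.01) and PSMD4 (0.98), while PSMB5 was at 0.41, PSMD14 at -0.13 (-0.21 to -0.05, against -0.21 in shScr day 3 and 0.26 in shScr day 7) and PSMB10 at -0.06 (-0.42 to 0.29). The genes called higher in the top tertile were 2 of 41 in shScr day 3 (4.88%), 18 of 42 in shAPC day 3 (42.9%), 15 of 40 in shScr day 7 (37.5%) and 5 of 39 in shAPC day 7 (12.8%), against 4.1%, 22.4%, 11.1% and 6.79% of all genes tested in the same libraries. In shScr day 3 that share was thus near the background. In shAPC day 3 the 3 called lower were PSMC3IP (-0.93), the base chaperone PSMD10 (-0.90) and PSME4 (-0.50). PSMC3IP reached 20 CPM in the bottom tertile but not in the top tertile, at 27.9 against 17.9 CPM. The sum of the 20S and 19S subunits was at 0.14, 0.62, 0.49 and 0.26 in the 4 libraries, and that of the CCT chaperonin at -0.12, -0.09, 0.12 and -0.08.

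**Figure D5:**
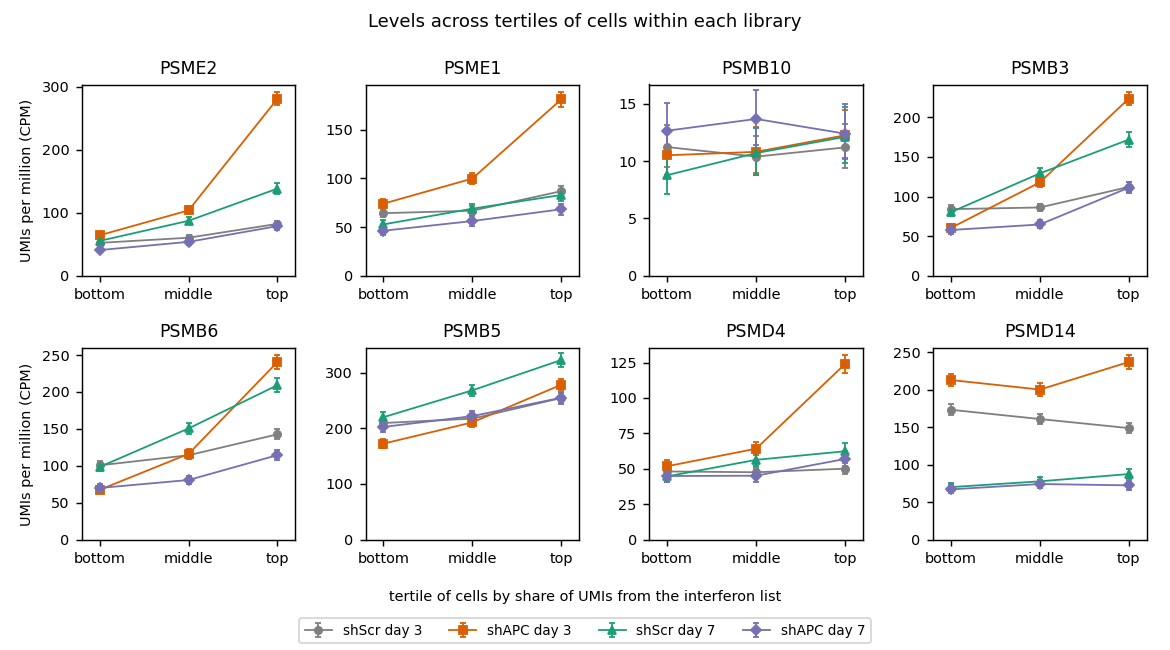
Level of 8 proteasome genes, in CPM, in the bottom, middle and top tertile of cells by share of interferon UMIs within each library, with exact Poisson 95% intervals of counting error. PSME2, PSME1, PSMB3, PSMB6 and PSMD4 are highest in the top tertile of shAPC day 3, whereas PSMB10 lies between 8.77 and 13.7 CPM throughout and PSMD14 is lower at day 7 than at day 3 in each tertile.

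Other measures moved along the same tertiles. In shAPC day 3 the stress-response factor ATF3 went from 2.34 CPM in the bottom tertile to 121 in the top tertile and DDIT3 from 18.3 to 452 CPM, while ribosomal protein genes went from 33.3% to 26.0% of UMIs and mitochondrial genes from 3.96% to 2.47%. In shScr day 7 ATF3 went from 1.03 to 47.2 CPM and the median UMIs per cell from 29137.5 to 19361. Their part in the ratios was not tested in full, but the ranking was repeated in cells with no ATF3 UMI, a choice made after the data were seen. There PSME2 was at 1.65, PSMB3 at 1.87 and PSMB6 at 1.64 in shAPC day 3, and PSME2 was at 0.63 in shScr day 3, 1.04 in shScr day 7 and 0.61 in shAPC day 7. PSMB3 was at 0.78 in shAPC day 7, so it lay above PSME2 in both shAPC libraries. In shScr day 3 PSMB3 was at 0.48, below PSME2, and in shScr day 7 at 1.02, nearly level with it. The genes called higher were 2 of 41 in shScr day 3, 22 of 42 in shAPC day 3, 13 of 40 in shScr day 7 and 3 of 39 in shAPC day 7. The tertiles of shAPC day 3 cells with no ATF3 UMI still differed, with DDIT3 from 17.1 to 79.4 CPM, ribosomal protein genes from 33.1% to 28.1% and median UMIs from 57283 to 43846.5. In cells of at least 10000 UMIs, where the tertiles of shAPC day 3 had median UMIs of 58839.5, 54317 and 60746.5, PSME2, PSMB3 and PSMB6 were at 1.81, 1.63 and 1.55 there, and 1, 18, 15 and 3 genes were called higher in shScr day 3, in shAPC day 3, in shScr day 7 and in shAPC day 7. In shAPC day 7 PSMB3 was at 0.82 and PSME2 at 0.78 in these deeper cells. The number called higher in shAPC day 7 thus came to 3 in both repeats, near the 6.79% of all genes called in the first ranking. The share of all genes called in the cells of each repeat is not given here. None of the counts of the repeats therefore has its own background beside it.

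The shAPC over shScr ratio of PSME2 was also taken within strata. At day 3 it was 0.16 between the bottom tertiles, 0.56 between the middle tertiles and 1.30 between the top tertiles, 1.04 in cells called G1 and 0.55 in those called G2M, and 0.64 in cells with no ATF3 UMI against 1.32 in cells with one. At day 7 it lay between -0.36 and -0.74 over the tertiles and at -0.49 in G1. The tertiles were not matched between libraries in interferon share. In the bottom tertile that share was 0.036% of UMIs in shScr day 3 and 0.179% in shAPC day 3. For PSMB6 the day 7 ratio was -0.53 in G1 and -1.26 in G2M, and for PSMB3 -0.41 and -1.14, so both were below the median in either phase, and by more in G2M. The phases were called from S and G2M gene lists after each cell was thinned to 2000 UMIs, which put 81.1% of cells in G1 in shScr day 3, 75.6% in shAPC day 3, 73.1% in shScr day 7 and 82.2% in shAPC day 7.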

How the data were processed

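Per the labels and the study's methods, the authors sequenced the cells on the 10x Genomics platform, aligned the reads to hg38 and deposited raw UMI counts per gene and barcode for each library. In the file headers the shScr matrices carry Cell Ranger 3.0.2 and the shAPC matrices 3.0.0, so the software version coincides with the shRNA and the 2 cannot be told apart. The labels give kit v2 and a retroviral vector, the methods V3 and a lentiviral one. The annotation release is not given in the sources used here.

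Barcodes were kept from 200 genes and 500 UMIs upward if mitochondrial UMIs made up less than 5%. UMIs were summed per library and scaled to CPM. Ratios had no pseudocount, and a count of 0 was set to 3 UMIs. Intervals are exact Poisson for levels and exact conditional binomial (Clopper-Pearson) for ratios, at 95%, and cover counting error only. No doublets were called or removed. The batch correction and imputation of the study were not applied. Phases used scanpy 1.11.5 with the lists of Seurat 5.3.0. TMM (edgeR 4.0.16) and DESeq2 1.42.0 size factors served only as other scalings. The ratio script was tested on simulated counts. Gene coordinates are from GENCODE 44, which held all 44 genes. 7 of them share exons with another gene on the same strand and 17 have named pseudogenes. How the counting treated such reads is not given in the sources used here.

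The genes and lists were chosen with earlier results of these data known. The genes named are the catalytic subunits, the interferon-inducible members, PSMD14 and PSMD4, the highest and lowest of each role group in each shAPC over shScr comparison, and every member at least 0.5 from the all-gene median in either. PSMA6, PSMC1 and others outside that rule, named for a count or the order of days or tertiles, were chosen after their values were seen. Some items are not reported here.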

Additional observations from a re-analysis of the deposited data

Results flagged for a closer look

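The proteasome genes PSME2, PSMB3 and PSMB1 lay on opposite sides of the all-gene median in shAPC over shScr at the 2 days, with both intervals apart from it and at least 1 of the 2 ratios 0.5 or more away. The relative log2 ratio of PSME2 was 0.92 at day 3 and -0.58 at day 7. PSMB3 was at 0.21 and -0.61, and PSMB1 at 0.13 and -0.51. The difference between the days was not tested, since each group held 1 library. Of these, only PSME2 was 0.5 or more away at both days. When CPM was averaged across cells PSMB1 lay below the median at day 3 as well, at -0.049, and PSMB3 was at 0.020.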

How the results depend on the processing

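No paired analysis was possible because each group held 1 library. Without centring on the median of all genes, the median of the tested genes among the 44 at day 3 was 0.38 with total UMIs, 0.27 with totals that leave out mitochondrial and ribosomal protein genes (added after seeing the data), 0.017 with DESeq2 size factors and 0.00 (0.0004996) with TMM, and that for day 7 over day 3 in shAPC was -0.68 with total UMIs and -0.50 with the reduced totals. The day 7 median was -0.37 with DESeq2 and -0.36 with TMM. With these scalings the genes at least 0.5 away numbered 9 (total UMIs) and 6 (reduced totals) at day 3, 9 (total UMIs, DESeq2 and TMM) at day 7, and 30 (total UMIs) and 21 (reduced totals) for the days in shAPC. The share of all genes that far away is not given here for these scalings. With total UMIs the median of all genes itself lay at 0.28 at day 3 and -0.34 for the days in shAPC. These counts therefore hold a shift shared with all genes, and whether they exceed the share of all genes was not tested. In shScr both totals gave 1 gene higher and 2 lower, against 0 and 2. Genes of at least 100 CPM gave medians of 0.29 at day 3 and -0.47 for the days in shAPC. Their counts were 2 of 16 at day 3, 2 of 11 at day 7 and 7 of 16 for the days in shAPC. Without a level filter the day 3 median was 0.01 (0.007076) and the day 7 count 9. All deposited barcodes and a mitochondrial limit of 10% each gave 9 genes at day 7, and leaving out the 5% of barcodes with the most UMIs gave 3. G1-called cells gave a day 7 median of -0.14, with 1 of 39 genes at day 7 and 2 of 41 at day 3. The mean over cells of CPM turned the day 3 median to -0.030 and gave -0.37 at day 7. For the days it gave -0.19 in shAPC and 0.17 in shScr. Its counts were 12 of 40 genes at day 7 and 5 of 41 for the days in shScr. The share of all genes that far away is not given here for these settings either. The cause of these shifts was not tested. Over all settings PSME2 stayed between 0.71 and 1.20 at day 3 and between -0.70 and -0.46 at day 7, and PSMD14 between -1.16 and -1.0 for the days in shScr and between -1.60 and -1.02 in shAPC. Leaving out barcodes shared between libraries (also added after seeing the data) gave 10 genes for the days in shAPC and changed no other count of genes.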
